A study of Mus musculus with 8 samples.

Results

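The laminin and nidogen genes form the protein scaffold of basement membranes, and 9 of them were examined here in RNA sequencing of mouse cells that carried or lacked the endocytic receptor LRP1. They were taken by gene symbol from the 22520 genes of the deposited expression table, and are Lama2, Lama3, Lama4, Lama5, Lamb1, Lamb2, Lamc1, Nid1 and Nid2. The 8 libraries are described as microvascular endothelial cells, and their labels give each as a mix of cells from heart, liver and lung. In every library, though, endothelial markers summed to less than those of mesothelium or of fibroblasts (values below). Wildtype (WT) had 4 libraries and LRP1 KO, the endothelial knockout of Lrp1, had 4, all from C57BL/6 mice at postnatal day 14. The study describes RNA sequencing of liver cells and of heart and lung cells apart, with other read processing than that named for these libraries. Its account may therefore not cover these libraries in every detail. According to the study, all mice were homozygous for a floxed Lrp1 allele (Lrp1 f/f), knockouts also carried Cdh5-CreER, and their WT littermates did not carry it. This Cre is tamoxifen-inducible and is expressed from the promoter of VE-cadherin, a gene of endothelial cells. Cells were selected with beads against the endothelial surface protein PECAM-1. Tamoxifen dosing, the number of mice behind each library and any pooling are not given in the sources used here, and p-values below therefore measure only the spread between these libraries, which may be partly technical.

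A laminin is a heterotrimer of 1 alpha, 1 beta and 1 gamma chain, assembled inside the cell and secreted, after which it polymerizes on the cell surface and binds integrins and dystroglycan mainly through the globular domains of the alpha chain. Nidogens bind the gamma 1 chain and link the laminin sheet to collagen IV and perlecan. In vessels, endothelial cells lay down laminins with the alpha 4 and alpha 5 chains, alpha 5 laminins also occur under epithelia and mesothelia, and alpha 2 laminins surround muscle cells and are made by mural cells and fibroblasts. Alpha 3 is a chain of epithelial basement membranes.

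Promoter sequence was at hand for 5 of the 9 genes (Lama2, Lama5, Lamb1, Lamb2 and Nid1), as windows in GRCm38.p6. They run from 250 bases before to 50 bases after the start of the gene in RefSeq. Except for Lama5, that start differs from the GENCODE start of the gene positions given below. The Lama2 window, chr10:27616893-27617192, lies inside the gene as GENCODE gives it, and no bases of it are shown. The bases upstream of every annotated transcript are shown for Lama5, for the beta chain Lamb2 and for the linker Nid1. Lama5 was the member with the largest difference between the groups. The Lama5 stretch is chr2:180225905-180226109 on the minus strand, the Lamb2 stretch is chr9:108479612-108479735 and the Nid1 stretch is chr13:13437352-13437550, both on the plus strand. They read 5′ to 3′, with capitals marking the GC box (GGGCGG on either strand), the short motif bound by Sp1-type factors.
Lama5: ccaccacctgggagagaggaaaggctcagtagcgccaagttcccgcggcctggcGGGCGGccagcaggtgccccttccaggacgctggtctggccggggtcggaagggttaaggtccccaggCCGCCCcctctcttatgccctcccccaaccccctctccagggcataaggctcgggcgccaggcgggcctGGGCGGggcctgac
Lamb2: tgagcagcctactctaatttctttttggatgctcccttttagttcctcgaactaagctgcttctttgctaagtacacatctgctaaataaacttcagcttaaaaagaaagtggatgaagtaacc
Nid1: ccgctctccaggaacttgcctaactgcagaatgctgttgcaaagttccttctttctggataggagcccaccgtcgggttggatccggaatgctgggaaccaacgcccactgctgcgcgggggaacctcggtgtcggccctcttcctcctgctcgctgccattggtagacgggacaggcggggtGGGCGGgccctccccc
The whole Lama5 window held 4 GC boxes, 3 of them in the bases shown, and had a GC content of 72.7%. The Nid1 window held 1 GC box at 64.7% GC, and the Lamb2 window held none at 44% GC. Lama2 had 1 and Lamb1 had 2. Of 32851 such mouse promoter windows, 35.7% held a GC box. The E-box (CANNTG, the same on both strands) matched once each in Lama2 and Lamb2, at 2 positions each in Lama5 and Lamb1 and nowhere in Nid1, against 72.3% of all windows with a match. Neither TATAAA, in 13.6% of windows, nor the forkhead motif GTAAACA, in 3.65%, was present on either strand in any of the 5 windows. An E-box and a GC box can share at most 1 end base, and these matches describe the windows only.

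Levels are FPKM, a count of fragments corrected for transcript length and for the total mapped, which allows genes of different length to be set side by side. As the values show, the authors had quantile normalized them, so that the 8 libraries had nearly the same distribution (sums from 503571 to 504112), and sequencing depth is unknown. Differences between groups are on the log2(FPKM + 1) scale from limma, fitted to the 11389 genes with at least 1 FPKM in at least 4 libraries, and a gene is called changed at a Benjamini-Hochberg adjusted p-value under 0.05. The targeted gene matched the labels, with Lrp1 at 103 to 140 FPKM in WT, against 2.79 to 7.72 FPKM in LRP1 KO, a mean of 3.99% of WT. LRP1 KO library 4 had the highest of the LRP1 KO values of Lrp1 and lay between the groups on the first principal component, and it is kept apart in what follows.

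The cell type named in the labels was checked against its markers. The 14 endothelial markers summed to 170 to 185 FPKM in WT, to 390 to 614 FPKM in libraries 1 to 3 of LRP1 KO and to 178 FPKM in LRP1 KO library 4, with all 14 estimates higher in LRP1 KO and 1, Eng, called. The 5 mesothelial markers, in contrast, summed to 1704 to 1932 FPKM in WT, against 1345 to 1565 FPKM in LRP1 KO, and the 10 fibroblast markers to 2481 to 3667 and 2130 to 3331 FPKM. In these libraries, markers of mesothelium and connective tissue were thus more abundant than those of endothelium, against the cell type in the labels, and the low Lrp1 of LRP1 KO was seen in all 4 libraries, library 4 with its endothelial markers at the WT level included. Pecam1, the gene of the protein used for selection, was at 6.80 to 8.76 FPKM in WT, against 36.3, 18.5, 26.2 and 6.72 FPKM in the numbered LRP1 KO libraries. Cdh5, which encodes VE-cadherin, ran in parallel, from 8.87 to 11.2 FPKM in WT, against 47.3, 21.5, 33.9 and 8.56 FPKM in LRP1 KO. The 12 mural markers summed to 671 to 837 FPKM in WT, against 1040 to 1627 FPKM in LRP1 KO, and the 11 macrophage markers in the table to 99.4 to 119 and 210 to 501 FPKM. The 7 pan-leukocyte markers summed to 6.30 to 11.9 and 41.8 to 84.5 FPKM. Most of the mural sum came from the contractile genes Acta2 (means of 360.4 and 711 FPKM) and Tagln (298 and 549 FPKM), whereas Pdgfrb was not called (log2 difference -0.31, limma adjusted p = 0.221) and 4 of the 12, Rgs5, Kcnj8, Abcc9 and Higd1b, were too low to test. For these 3 lists the LRP1 KO sums all exceeded the WT sums. Called higher were 4 of 8 tested mural, 6 of 9 macrophage and 5 of 6 pan-leukocyte markers. Over all tested genes, 6.27% were called higher and 7.31% lower. Ptprc was at no more than 0.860 FPKM and was not tested, and Csf1r had means of 2.85 and 4.01 FPKM (called higher). Most of the macrophage rise came from Lyz2 (means of 39.4 and 250 FPKM). Cd14 (37.3 and 26.9 FPKM) and Mertk (14.3 and 13.8 FPKM) had estimates below 0 and were not called. Markers of hepatocytes (6 genes, at most 1.45 FPKM in sum), lymphocytes (6 genes, at most 0.105) and Schwann cells (3 genes, at most 0.564) were near 0. Those of lung epithelium (8 genes) summed to 4.21 to 7.44 FPKM in WT, against 3.69 to 6.82 FPKM in LRP1 KO, and 1 of the 2 tested, Scgb1a1, was called lower (log2 difference -0.85, limma adjusted p = 0.00770). Alb was listed at 0 in 4 of the 8 libraries and Sftpc in 2. The 8 cardiomyocyte markers summed to 102 to 156 FPKM in WT, against 90.6 to 128 FPKM in LRP1 KO. Tnnt2 alone made up most of these sums (means of 124 and 96.1 FPKM, not called), and Myh6 was at no more than 1.51 FPKM. In such bulk samples, fewer cells of a type and less RNA per cell cannot be told apart.

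**Figure D1:**
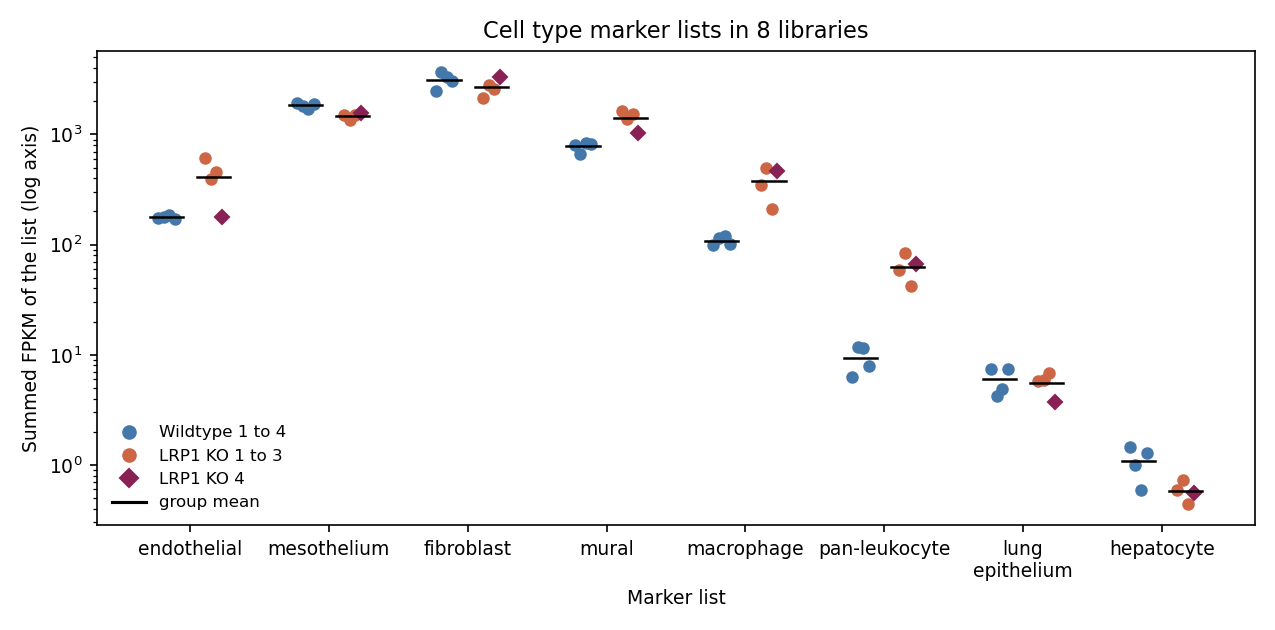
Summed FPKM of 8 marker lists (log axis) in each WT library (blue circles), in LRP1 KO libraries 1 to 3 (orange circles) and in LRP1 KO library 4 (purple diamonds), with the group mean as a line. Endothelial markers lay at 170 to 185 FPKM in WT, against 390 to 614 FPKM in libraries 1 to 3 of LRP1 KO, whereas library 4, at 178 FPKM, lay among the WT values.

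In WT, the linker Nid2 was the most abundant member at 322 ± 42.1 FPKM (SD, n = 4), above 97.9% of tested genes. It was followed by the gamma 1 chain Lamc1 at 132 ± 14.1, the second nidogen Nid1 at 89.6 ± 24.6, and the chains Lama5 at 83.7 ± 9.41, Lamb1 at 77.7 ± 3.68 and Lamb2 at 71.3 ± 8.45 FPKM. Lama4 (28.6 ± 2.65 FPKM) and Lama2 (9.42 ± 2.82 FPKM) were lower, and Lama3 was barely present at 0.134 ± 0.0453 FPKM. Of the 8 neighboring pairs in this order, 4 had ranges that did not overlap, namely Nid2 and Lamc1, Lamb2 and Lama4, Lama4 and Lama2, and Lama2 and Lama3. Between neighbors from Lamc1 down to Lamb2 the ranges overlapped, although Lamc1 was above Nid1 in 4 of 4 libraries and its lowest value was above the highest of Lama5, Lamb1 and Lamb2. In LRP1 KO the order was the same apart from Lama5, which stood below Lamb1 and Lamb2, and there Lamb2 and Lama5 overlapped, as did Lamc1 and Nid1.

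Among the 8 members that could be tested, 2 were called changed, Lama5 and Nid2, both lower in LRP1 KO. Over all tested genes 13.6% were called, with 7.31% called lower and 6.27% called higher (833 and 714 genes, but 743 and 825 after median-ratio rescaling of the libraries). With the added limit of a 2-fold difference, only Lama5 remained, at a background of 1.62% of tested genes in either direction and 0.5% lower. The median log2 difference of the 8 members was -0.12, beside -0.01 for all tested genes, with 6 estimates below 0 and 2 above. In Lama5 and Lamb2 all LRP1 KO libraries were below all WT libraries, a separation found in 19.6% of tested genes, 10.7% with LRP1 KO lower and 8.84% with LRP1 KO higher. Leaving out LRP1 KO library 4 gave 4 calls (Lama5, Lamb1, Lamb2 and Nid2), all lower, while 26.5% of all tested genes were then called. Leaving out WT library 2 or 3 or LRP1 KO library 1, 2 or 3 left 1, Lama5, while 4.50%, 8.07%, 4.97%, 4.58% and 4.79% of all tested genes were called.

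**Figure D2:**
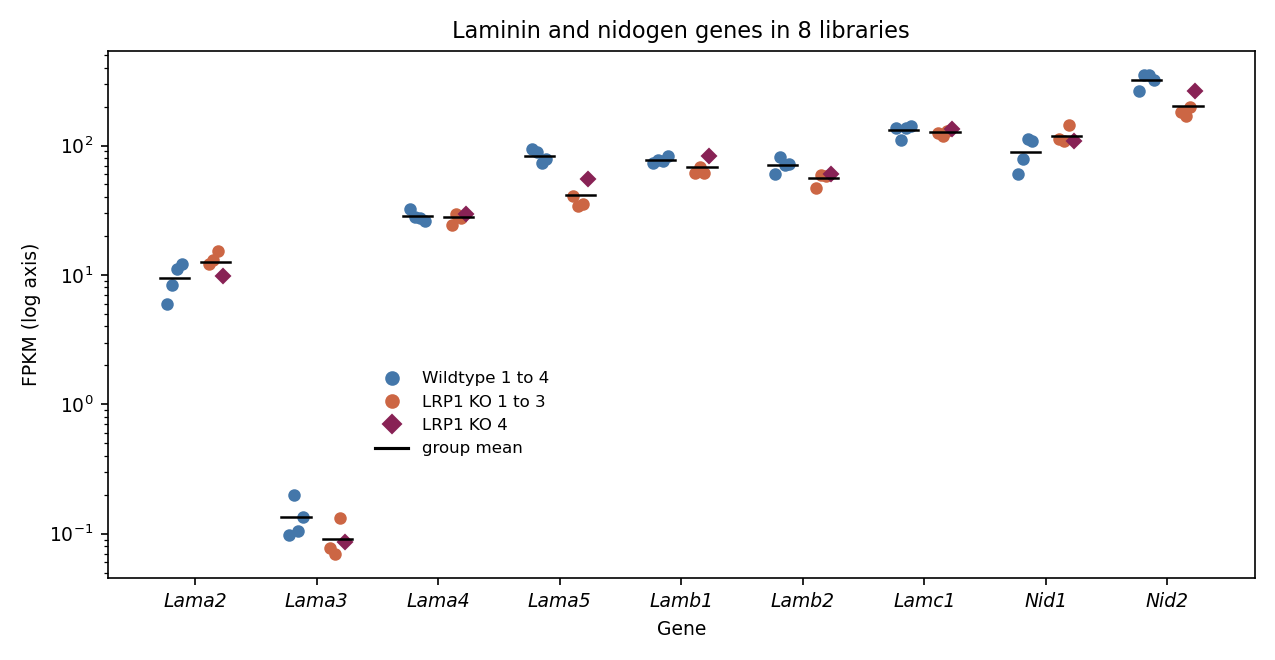
FPKM (log axis) of the 9 genes in each WT library (blue circles), in LRP1 KO libraries 1 to 3 (orange circles) and in LRP1 KO library 4 (purple diamonds), with the group mean as a line. Lama5 and Nid2 are lower in LRP1 KO (group means 83.7 and 41.4 FPKM for Lama5, 322 and 203 FPKM for Nid2), and in both genes library 4 is the LRP1 KO library nearest to WT.

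Of the alpha chains, which set the tissue type and the receptor preference of a laminin, Lama5 differed most. Lama5 (ENSMUSG00000015647), a gene of 79 exons at chr2:180176373-180225859 on the minus strand (GRCm38, GENCODE M21), had 93.4, 89.8, 73.4 and 78.4 FPKM across the WT libraries, in their numbered order, against 40.6, 34.3, 35.3 and 55.3 FPKM across those of LRP1 KO. The groups did not overlap, and the highest LRP1 KO value was that of library 4. The mean went from 83.7 ± 9.41 to 41.4 ± 9.66 FPKM (SD, n = 4 each), or 49.4% of WT, and to 43.9% when library 4 was left out. On the log2 scale Lama5 fell by 1.02 (SE 0.15, 95% confidence interval -1.34 to -0.69, limma adjusted p = 0.00436). Permuting the libraries exactly (two-sided) gave p = 0.0286, the lowest that 4 against 4 can reach. The call held in 15 of 16 alternative analyses (adjusted p from 0.000333 to 0.108). It was lost where the mean level of the endothelial markers entered the model as a covariate, with a log2 difference of -0.74 (adjusted p = 0.108).

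Lama4, the other alpha chain of vascular laminins, had a difference near 0. It lies at chr10:38965515-39110188 on the plus strand and had 32.4, 28.1, 27.8 and 26.2 FPKM in WT, against 24.3, 29.8, 27.5 and 29.8 FPKM in LRP1 KO. The values of the groups were interspersed around means of 28.6 ± 2.65 and 27.9 ± 2.59 FPKM. The log2 difference of -0.04 had a 95% confidence interval from -0.23 to 0.15 (limma adjusted p = 0.784), an interval that does not reach the difference of Lama5. Its sign changed in 4 alternatives, so that no direction can be given for Lama4.

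Lama2, the alpha chain of muscle and mesenchymal laminins, had estimates on the other side of 0. It spans chr10:26980036-27619758 on the minus strand with 65 exons, and had 5.93, 8.41, 11.2 and 12.2 FPKM in WT, against 12.1, 13.0, 15.3 and 9.87 FPKM in LRP1 KO. The groups overlapped, with WT library 1 lowest and LRP1 KO libraries 1 and 4 within the WT range. The log2 difference was 0.41 (95% confidence interval -0.04 to 0.86, limma adjusted p = 0.181), and it did not pass the threshold in any of the 16 alternatives. It was 0.23 both without WT library 1 and with the endothelial covariate. Lama3, the epithelial chain on chromosome 18, was at 0.0978, 0.197, 0.105 and 0.135 FPKM in WT, against 0.0772, 0.0697, 0.133 and 0.0855 FPKM in LRP1 KO. It was under 1 FPKM in every library and was therefore not tested in the model, and an exact permutation test gave p = 0.143.

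Set against the sum of Lama2 to Lama5 in each library, Lama5 had a smaller share in each LRP1 KO library than in any WT library. Lama5 made up 70.8%, 71.0%, 65.3% and 67.1% of the summed alpha chain FPKM in WT, against 52.6%, 44.4%, 45.1% and 58.2% in LRP1 KO. The mean share was 68.5 ± 2.84% in WT and 50.1 ± 6.55% in LRP1 KO, with no overlap. Lama4 had 23.5 ± 1.34% in WT and 34.2 ± 3.43% in LRP1 KO, again with no overlap, whereas the share of Lama2, 7.88 ± 2.81% and 15.6 ± 3.86%, overlapped. The sum itself was lower in LRP1 KO, at 122 ± 8.83 and 81.9 ± 8.74 FPKM. The larger Lama4 share was hence seen at nearly equal Lama4 levels. There were 2.93 ± 0.229 FPKM of Lama5 per FPKM of Lama4 in WT and 1.49 ± 0.328 in LRP1 KO. These shares restate the Lama5 values above and carry no test of their own.

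**Figure D3:**
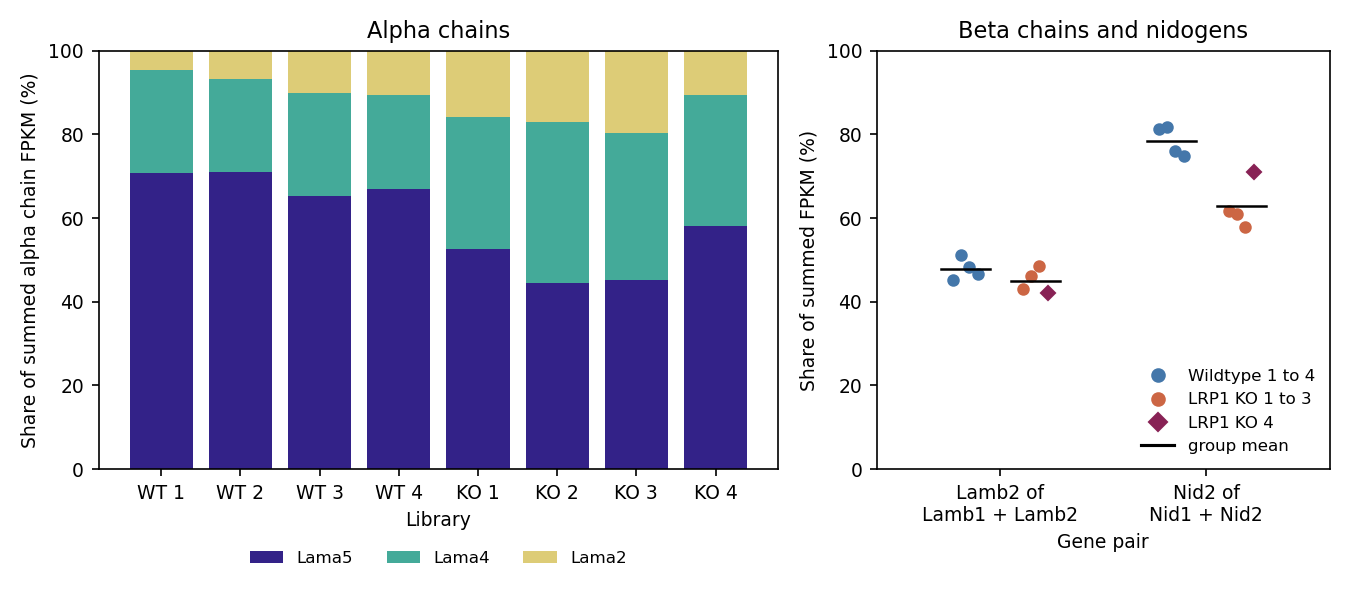
Left, share (%) of Lama5, Lama4 and Lama2 in the summed FPKM of Lama2 to Lama5 for each library (Lama3, at most 0.17%, is in the sum and not drawn). Right, share (%) of Lamb2 in the beta chains and of Nid2 in the nidogens, by library with the group mean as a line. The share of Lama5 was 65.3 to 71.0% in WT and 44.4 to 58.2% in LRP1 KO, and that of Nid2 was 74.9 to 81.7% and 57.9 to 71.1%, while the Lamb2 shares overlapped.

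The beta chains are shared by several laminins, with beta 1 widely expressed and beta 2 typical of the glomerulus, the neuromuscular junction and mature vessels. Lamb2 (chr9:108479736-108490530, plus strand) had 60.7, 81.4, 71.3 and 72.0 FPKM in WT, against 46.6, 59.0, 57.9 and 60.4 FPKM in LRP1 KO. The groups did not overlap, though the gap between the highest LRP1 KO and the lowest WT library was less than 1 FPKM. The mean was 71.3 ± 8.45 FPKM in WT, against 56.0 ± 6.35 FPKM in LRP1 KO, 78.5% of WT. The log2 difference of -0.34 (SE 0.10, 95% confidence interval -0.58 to -0.11) missed the threshold at a limma adjusted p of 0.0574, with an exact permutation p of 0.0286. It passed in 4 of the 16 alternatives, among them those without WT library 1 (adjusted p = 0.0442) and without LRP1 KO library 4 (adjusted p = 0.0364). The estimate was smaller with the marker covariates, at -0.18 with the endothelial (adjusted p = 0.754) and -0.18 with the fibroblast covariate (adjusted p = 0.258).

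Lamb1 (chr12:31265234-31329644, plus strand) had 73.9, 77.5, 76.5 and 82.7 FPKM in WT, against 61.9, 68.8, 61.2 and 83.2 FPKM in LRP1 KO. LRP1 KO libraries 1 to 3 were below every WT library and library 4 was above every one. The log2 difference of -0.18 (95% confidence interval -0.40 to 0.03) was not past the threshold (limma adjusted p = 0.203). Without library 4 it was -0.28 (adjusted p = 0.0141), and with the endothelial covariate its sign turned, to 0.07. The share of Lamb2 in the beta chains was 47.8 ± 2.64% in WT and 45.0 ± 3.02% in LRP1 KO.

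Lamc1 encodes the gamma 1 chain, the partner in most laminins and the chain that carries the nidogen-binding site. It lies at chr1:153218922-153332786 on the minus strand and had 138, 111, 136 and 142 FPKM in WT, against 126, 119, 130 and 134 FPKM in LRP1 KO. All 4 LRP1 KO values were inside the WT range. The log2 difference of -0.05 had a 95% confidence interval from -0.23 to 0.14 (limma adjusted p = 0.713). No alternative brought it past the threshold. Outside the 9 members, the gamma 3 chain Lamc3 was called lower (limma adjusted p = 0.00987), with 10.5 to 16.6 FPKM in WT, against 3.23 to 8.07 FPKM in LRP1 KO and a log2 difference of -1.29 (SE 0.22), which was -0.65 with the endothelial covariate (adjusted p = 0.114).

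**Figure D4:**
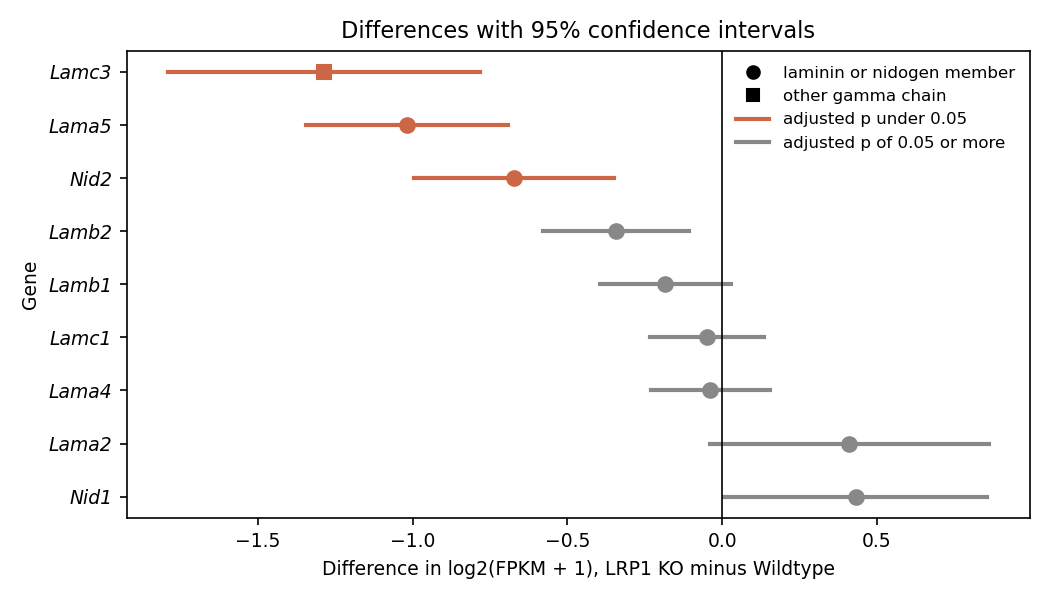
Difference in log2(FPKM + 1) between LRP1 KO and WT, with 95% confidence intervals from limma, for the 8 members tested (circles) and for Lamc3 (square), colored where the adjusted p was under 0.05. Lama5 (-1.02), Nid2 (-0.67) and Lamc3 (-1.29) are called, and the intervals of Lama4 and Lamc1 span 0 and are the narrowest shown.

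The pair of nidogens, which are alike in domain structure and both bind laminin gamma 1, had estimates of opposite sign. Nid2 (ENSMUSG00000021806, chr14:19751265-19811787, plus strand) had 263, 351, 353 and 323 FPKM in WT, against 181, 170, 198 and 265 FPKM in LRP1 KO. LRP1 KO libraries 1 to 3 were below every WT library, and library 4 was just above the lowest WT library, so that the groups overlapped by 1 library. The mean was 322 ± 42.1 FPKM in WT, against 203 ± 42.4 FPKM in LRP1 KO, 63.1% of WT, or 56.8% without library 4. Nid2 fell by 0.67 on the log2 scale (SE 0.14, 95% confidence interval -1.0 to -0.35, limma adjusted p = 0.0203), while the exact permutation test gave p = 0.0571. The call depended on single libraries. It was lost without WT library 2 (adjusted p = 0.0663), WT library 3 (0.0510), LRP1 KO library 1 (0.0596), LRP1 KO library 2 (0.0596) or LRP1 KO library 3 (0.0553), and held without library 4 (0.00147). With the endothelial covariate the difference was -0.38 (adjusted p = 0.482), and with a fibroblast covariate -0.48 (adjusted p = 0.0840). The direction was kept in all 16 alternatives.

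Nid1 (chr13:13437551-13512269, plus strand) had 60.0, 78.8, 112 and 108 FPKM in WT, against 113, 109, 144 and 108 FPKM in LRP1 KO. WT libraries 1 and 2 were below all others, and the groups overlapped. The log2 difference of 0.43 (SE 0.19, 95% confidence interval 0.01 to 0.86) was not past the threshold after adjustment (limma adjusted p = 0.143, exact permutation p = 0.143), and it was 0.26 without WT library 1. As a share of both nidogens, Nid2 made up 81.4%, 81.7%, 76.0% and 74.9% in WT and 61.6%, 60.9%, 57.9% and 71.1% in LRP1 KO, with no overlap. The summed nidogen level, 412 ± 61.6 FPKM in WT, against 322 ± 43.0 FPKM in LRP1 KO, overlapped. In FPKM there was 3.74 ± 0.779 times as much Nid2 as Nid1 in WT, and 1.75 ± 0.483 times as much in LRP1 KO. The share and the ratio restate the values of the 2 genes, each of which overlapped between the groups, and carry no test of their own.

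The libraries did not contribute alike. LRP1 KO library 4 was the LRP1 KO library closest to the WT mean in 6 of the 9 genes (Lama2, Lama5, Lamb1, Lamb2, Nid1 and Nid2), and WT library 1 was the lowest WT library in 6 (Lama2, Lama3, Lamb1, Lamb2, Nid1 and Nid2). The same library 4 had endothelial marker levels like those of WT, whereas its macrophage marker sum, 463 FPKM, was within the range of the other LRP1 KO libraries (210 to 501 FPKM). Some mesothelial markers were lower together with Lama5 and Nid2. Msln was at 1094 to 1272 FPKM in WT, against 911 to 1043 FPKM in LRP1 KO (limma adjusted p = 0.0471), Upk3b was at 363 to 467 and 257 to 311 FPKM (adjusted p = 0.0109), and 2 of the 5 mesothelial markers were called lower with all 5 estimates below 0, beside 7.31% of all tested genes called lower. Lrrn4, Wt1 and Krt19 were not called (adjusted p = 0.0911, 0.128 and 0.711). Among the 10 fibroblast markers, 2 were called lower and 1 higher, with Pdgfra at 37.4 to 50.9 FPKM in WT, against 14.2 to 37.7 FPKM in LRP1 KO (adjusted p = 0.0367). The part of the mesothelial, mural and macrophage markers in the laminin and nidogen values was not tested.

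Over the 8 libraries, the members fell into patterns that can be described by Pearson's r of log2(FPKM + 1), with points that share the 2 groups and the normalization. Lama2 and Nid1 had closely parallel values (r = 0.96, and 0.94 after the group means were removed). Lama5 and Nid2 had r = 0.88, and 0.49 after the group means were removed. Lama5 and Lama2 were opposed, with r = -0.77 and -0.76 within the groups. Among all tested genes, those most like Lama5 were Anxa11 (r = 0.9985), Slc48a1 (0.994) and Agfg2 (0.993), each with an r of at least 0.95 within groups. For Nid2 they were Nfib (0.993), Flrt2 (0.993) and Srebf2 (0.991), for Nid1 Tns1 (0.987), Cggbp1 (0.977) and Tm9sf4 (0.976), and for Lama2 Ankrd40 (0.981), Dusp11 (0.980) and Epb4.1l2 (0.980). The nearest genes were Eri3, Gm10134 and Cxcl12 for Lamb1 (r from 0.965 to 0.978), S1pr2, Fam53c and Tsc22d3 for Lamb2 (0.971 to 0.974), Fam49a, Zdhhc17 and Lmo4 for Lamc1 (0.932 to 0.954) and Cenpw, Ociad1 and Zfp120 for Lama4 (0.912 to 0.927). These were the highest values among 11389 genes over only 8 libraries.

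The partners of these proteins were then examined in 5 lists with 60 genes, of which 52 could be tested and 11 were called, 7 higher and 4 lower, beside 13.6% of all tested genes. Of the 10 other laminin and netrin chains, 6 were tested, and 1, Lamc3, was called, with a median log2 difference of -0.12. Netrins carry laminin-type domains, and Ntn4, which binds laminin gamma chains, was at 5.47 to 7.77 FPKM in WT, against 6.66 to 12 FPKM in LRP1 KO and was not called (log2 difference 0.50, limma adjusted p = 0.0778). Without LRP1 KO library 4 there were 4 calls in this list and 23 over all 5 lists, beside 26.5% of all tested genes, and without WT library 2 there were 7 over all.

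Collagen IV and perlecan, the other main components of the basement membrane, were not called. Col4a1 was at 673 to 947 FPKM in WT, against 745 to 869 FPKM in LRP1 KO (log2 difference -0.04, limma adjusted p = 0.812), Col4a2 at 474 to 638 and 492 to 579 FPKM (-0.07, adjusted p = 0.630), and Hspg2, which encodes perlecan, at 65.9 to 92.6 and 64.4 to 85.1 FPKM (-0.17, adjusted p = 0.332). The LRP1 KO values of these genes lay within or close to the WT range. Sparc, a collagen IV binding protein, had the same values in both groups, 3055 to 3645 FPKM, and its log2 difference was 0 (95% confidence interval -0.19 to 0.19). At such ranks quantile normalization leaves few values for a gene to take.

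In the list of 19 basement membrane components, 2 were called higher and 2 lower, with a median log2 difference of -0.01, beside 13.6% of all tested genes called. Fbln2, a fibulin that binds laminins and nidogens, rose from 416 to 552 FPKM across WT libraries to 625 to 842 FPKM across LRP1 KO libraries, by 0.65 on the log2 scale (limma adjusted p = 0.00957). Hmcn1, an extracellular hemicentin, fell by 0.92 (adjusted p = 0.00600), from 8.78 to 12.9 FPKM to 3.80 to 6.18 FPKM. Of the SPARC-related calcium-binding proteins, Smoc2 fell by 1.21 (adjusted p = 0.0208), from 44.3 to 81.3 FPKM to 17.4 to 40.4 FPKM, and Smoc1 rose by 0.84 (adjusted p = 0.0327), from 1.72 to 2.35 FPKM to 2.34 to 6.00 FPKM. Fbln2 and Hmcn1 stayed called without any 1 library. The call of Smoc2 was lost without WT library 2, WT library 3 or LRP1 KO library 3 (adjusted p from 0.0515 to 0.0652). That of Smoc1 was lost without any 1 library other than LRP1 KO library 4 (0.0620 to 0.0880). It was also lost with no filter on low values and with the fibroblast covariate. Without library 4, 7 of the 19 were called, beside 26.5% of all tested genes, and without WT library 2 or 3 there were 2. With the endothelial covariate limma called 0 of them (5 at an unadjusted p under 0.05) and 1.25% of all tested genes.

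**Figure D5:**
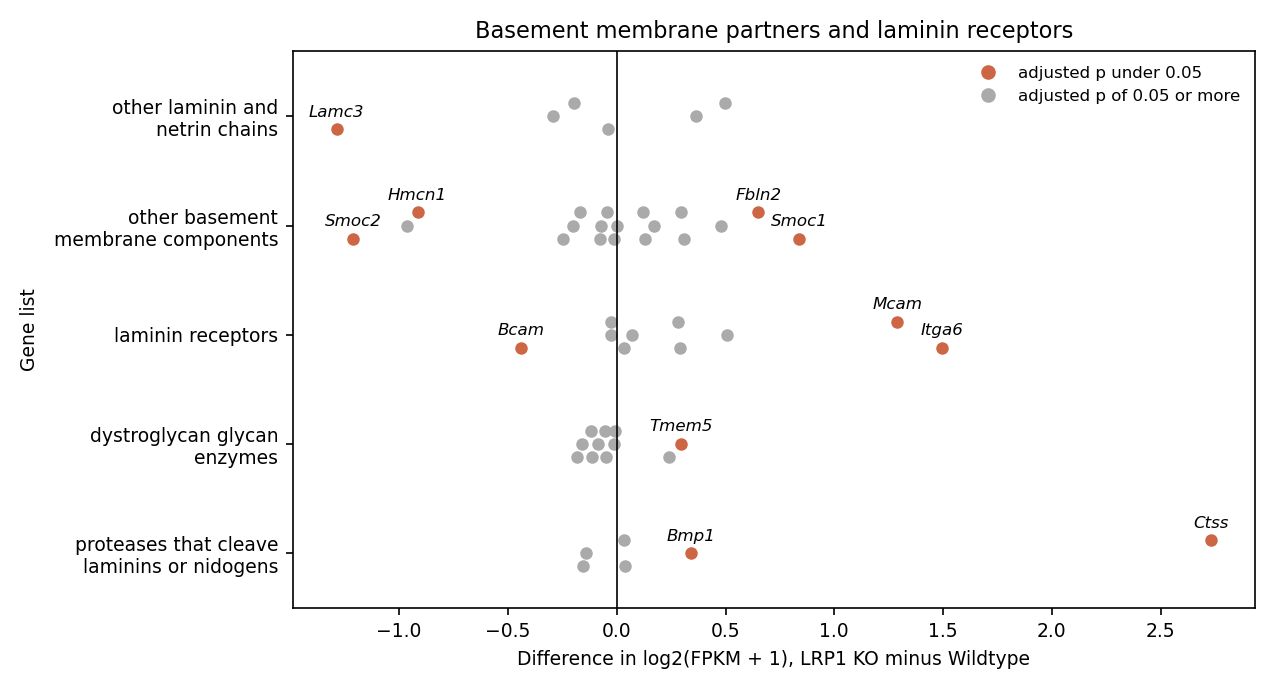
Difference in log2(FPKM + 1), LRP1 KO minus WT, of each tested gene in the 5 partner lists, colored and named where the limma adjusted p was under 0.05. There were 11 such genes of 52, from Lamc3 at -1.29 to Ctss at 2.73.

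Laminin receptors sense the alpha chain on the cell surface. Of 11 listed, 10 were tested, 2 were called higher and 1 lower, with a median log2 difference of 0.18. Itga6, the alpha 6 integrin subunit that binds laminins, rose by 1.49 on the log2 scale (SE 0.27, limma adjusted p = 0.0111), from 2.05 to 2.75 FPKM in WT to 13.9, 8.33, 11.4 and 4.37 FPKM in the numbered LRP1 KO libraries. Mcam, a laminin alpha 4 receptor of endothelial and mural cells, rose by 1.29 (SE 0.25, adjusted p = 0.0150), from 4.48 to 5.85 FPKM to 18.3, 16.1, 16.2 and 6.82 FPKM. Both were high in the libraries in which endothelial markers were high, with library 4 the lowest of LRP1 KO. In library 4, with endothelial markers at the WT level, both were still above every WT library. With the endothelial covariate the call of Itga6 held and that of Mcam did not, and without WT library 2 the adjusted p of Mcam was 0.05, just over the threshold.

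Bcam, the Lutheran glycoprotein, which binds laminin alpha 5, was the receptor called lower. It had 54.9, 61.5, 46.2 and 47.0 FPKM in WT, against 38.5, 36.9, 37.2 and 39.8 FPKM in LRP1 KO, with no overlap. Its log2 difference was -0.44 (SE 0.09, limma adjusted p = 0.0172), and 72.8% of the WT mean remained. The call was lost without LRP1 KO library 2 or 3 (adjusted p 0.0520 to 0.0556) and with either marker covariate. Dag1, which encodes dystroglycan, was not called (-0.03, adjusted p = 0.915), nor were Itga3 (-0.03, adjusted p = 0.874) and Itgb1 (0.28, adjusted p = 0.0723), the beta 1 subunit, whose groups did not overlap at 344 to 455 and 458 to 535 FPKM. Without LRP1 KO library 4, 6 receptors were called, beside 26.5% of all tested genes.

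Dystroglycan binds laminin through a sugar chain built by a set of enzymes. Of 13 listed, 11 were tested and 1, Tmem5, a xylosyltransferase of that chain, was called higher (log2 difference 0.30, limma adjusted p = 0.0326), from 28.5 to 33.0 FPKM in WT to 34.1 to 41.2 FPKM in LRP1 KO. This call was lost in 10 of the 16 alternatives (adjusted p from 0.0104 to 0.628 over all 16), namely with no filter, the replicate block or either marker covariate and without WT library 1, 2 or 3 or LRP1 KO library 1, 2 or 3 (0.0635 to 0.0960), and without WT library 4 or LRP1 KO library 4 there were 2. Of 7 proteases known to cut laminins or nidogens, 6 were tested and 2 were called higher, with a median log2 difference of 0.04, against -0.05 for the enzymes of the sugar chain. Ctss, the macrophage-rich cathepsin S, was at 4 to 7.06 FPKM in WT, against 30.7 to 63.9 FPKM in LRP1 KO (log2 difference 2.73, adjusted p = 0.000449), beside the 6 of 9 tested macrophage markers that were called higher. Bmp1, a tolloid protease that processes laminin chains, was at 57.9 to 62.9 and 71.3 to 85.6 FPKM (0.34, adjusted p = 0.0138), a call lost with the endothelial covariate (adjusted p = 0.116). The matrix metalloproteinases Mmp2 (-0.14, adjusted p = 0.639) and Mmp14 (-0.15, adjusted p = 0.151) were not called. Without LRP1 KO library 4, 4 of the 6 proteases were called, beside the same 26.5%.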

How the data were processed

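Total RNA was isolated with an RNeasy kit and sequenced from TruSeq libraries, per the labels. The submitters' processing notes name TopHat2, Cufflinks and the genome build mm10, without versions or settings. The deposited table was taken to hold FPKM values for 22520 genes in 8 libraries, since Cufflinks gives that unit and the header names none. That the authors had quantile normalized them was read from the values. At equal rank the libraries differed by 0.576% at the median and by at most 3.39%, over ranks with at least 1 FPKM in every library. Depth is therefore unknown, no counting error can be given, and precision comes from the spread of 4 libraries per group. The values are not counts, so that the count test planned for them was not run.

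Values were analysed as log2(FPKM + 1), which understates differences of genes near or under 1 FPKM. Genes with at least 1 FPKM in at least 4 libraries (11389) were fitted with limma 3.58.1 (R 4.3.3), with a variance trend and group as the only term, and p-values were Benjamini-Hochberg adjusted over them. Calls were made at 0.05, with a second limit of 1 on the log2 scale. Single values were compared by exact permutation (two-sided) over 70 splits, whose smallest p is 0.0286. Simulated data for this comparison had independent normal noise in each gene and 200 changed genes. On them the fit recovered 95.1% of genes changed by 1 on the log2 scale and 99.2% of those changed by 2. Of the calls, 5.99% were false, over a mean of 11306 genes. The simulation held no effect shared between genes or by a whole library, so these rates do not describe the real libraries. The 16 alternatives were another pseudocount (0.1), no filter, median-ratio rescaling, no variance trend, array quality weights, a replicate block, 2 marker covariates and leaving out each library.

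The 9 genes and the gene lists were chosen with earlier results of these data known. Named partner genes are up to 3 called genes per direction in each list, the defining markers, and, for each member, the 3 genes with the highest correlation. Ntn4, Col4a1, Col4a2, Hspg2, Sparc, Dag1, Itga3, Itgb1, Mmp2, Mmp14, Msln, Eng, Scgb1a1, Tnnt2, Acta2, Tagln, Rgs5, Kcnj8, Abcc9, Higd1b, Lyz2, Cd14, Mertk, Lrrn4, Wt1, Krt19 and Upk3b were named after their values were seen. Gene positions are from GENCODE M21 (GRCm38), and promoter windows from RefSeq.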

Additional observations from a re-analysis of the deposited data

Results flagged for a closer look

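In the 4 LRP1 KO libraries, Nid1 was at 144 FPKM in library 3 and between 108 and 113 FPKM in the other 3, a gap of 0.859 of the whole range, above Dixon's critical value for 4 samples. The share of Lama3 in the summed alpha chains was 0.170% in the same library and 0.0899 to 0.10% in the other 3, a gap of 0.872 of the range, at Lama3 levels far under 1 FPKM. Of 54 groups of values examined in this way 2 stood apart, where chance gives about 1 in 20.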

How the results depend on the processing

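The count of members called, 2 of 8, was 4 with array quality weights (Lama5, Lamb1, Lamb2 and Nid2), 0 with the endothelial marker covariate in limma (2 at an unadjusted p under 0.05) and 1, Lama5, with the fibroblast marker covariate, and 1 to 4 when 1 library was left out. The count with a 2-fold difference, 1, was 0 with either covariate and 0 to 1 when 1 library was left out, being 0 without WT library 1 or 2 or LRP1 KO library 2 or 3, where Lama5 stayed called at an estimate just under the limit. Calls in the partner lists, 11, were 18 with weights, 2 with the endothelial covariate and 7 to 23 when 1 library was left out. Calls over all genes, 1547, moved as well, to 3003 with weights, 142 with the endothelial and 424 with the fibroblast covariate, 1013 with the replicate block, 3021 without LRP1 KO library 4 and 512 to 1008 without any 1 of the other libraries. The cause of these changes was not tested.

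Signs turned for members near 0. Lama4 was 0.086 with the endothelial and 0.021 with the fibroblast covariate, and from -0.078 to 0.023 when 1 library was left out, above 0 without WT library 1 or LRP1 KO library 1. Lamb1 (0.073) and Lamc1 (0.00232) turned with the endothelial covariate. Lama5, Nid2, Lamb2, Lama2 and Nid1 kept their sign in all 16 alternatives. Another pseudocount, no filter, rescaling and no variance trend left the same 2 members called. The shares of Lama2, Lama4, Lama5, Lamb2 and Nid2 moved by less than 1 SD in each alternative run on them.

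Equal replicate numbers do not mark shared animals or days in the labels, and the deviations of same-numbered libraries correlated at 0.158, 0.141, 0.340 and -0.312, so that they were not taken as pairs. With the replicate number as a block, Lamb2 was also called (-0.34, adjusted p = 0.0263), which made 3 members, and 2 of the 4 numbers correlated best with themselves.

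Unknown depth and 4 libraries per group limit these values. Lama3 was under the filter in every library, and genes at the top of the table can take only the few values that quantile normalization gives to their ranks.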
